A study of Homo sapiens with 6 samples.

Results

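The minor spliceosome component genes are 10 protein-coding genes picked by name: SNRNP48, RNPC3, SNRNP25, SNRNP35, PDCD7, ZMAT5, ZCRB1, ZRSR2, SCNM1 and RBM48. All 10 were found by gene ID among the 58780 GENCODE genes of the tables, and their 48 annotated transcripts are among 206761. They were followed in HCT116, an established human colorectal carcinoma cell line, in 3 biological replicates given auxin for 16 h (labelled "16h Auxin") and 3 given the solvent DMSO (labelled "DMSO control"). Auxin is a plant hormone that cells with an engineered degron system use to destroy the tagged protein. The labels name neither the protein that auxin acts on nor any engineered allele, so the state that both groups share beyond the cell line is not given in the sources used here. RNA was total RNA depleted of ribosomal RNA, in which unspliced transcripts are also sequenced.

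Most human introns are removed by the major spliceosome, and a small class, the U12-type introns, by the minor one. In the minor spliceosome the U11 and U12 small nuclear RNAs (snRNAs) form a di-snRNP that reads the 5′ splice site and the branch site together, after which U6atac, brought in paired with U4atac, replaces U11 at the 5′ splice site. SNRNP48, RNPC3, SNRNP25, SNRNP35, PDCD7, ZMAT5, ZCRB1 and ZRSR2 encode proteins of the di-snRNP, and SCNM1 and RBM48 act in the later, activated complex. Levels of the SNRNP48 and RNPC3 mRNAs are known to be tuned through splicing by paired copies of a U12-type 5′ splice site motif, an element to which U11 binds and which promotes use of a splice site upstream of it.

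That element is shown first because the SNRNP48 and RNPC3 transcripts described below differ in the exons beside it; its part in their levels was not tested. The motif searched was GTATCCTT or ATATCCTT, on the strand of the gene, and capitals mark each copy. In the SNRNP48 line the first 8 capitals mark a short optional exon as well. Sequences are of the GENCODE release 29 transcripts on GRCh38. The SNRNP48 stretch lies in an intron of the main transcript and in an exon of the retained-intron transcript SNRNP48-202, at chr6:7599673-7599772 (plus strand), and the RNPC3 stretch in the 3′ UTR of RNPC3-208, at chr1:103553315-103553344 (plus strand).
SNRNP48 element: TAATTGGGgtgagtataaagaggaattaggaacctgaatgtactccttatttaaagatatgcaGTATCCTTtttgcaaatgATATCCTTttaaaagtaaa
RNPC3 element: agtGTATCCTTtcttgtcGTATCCTTtttg

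The 2 copies started 18 bases apart in SNRNP48 and 15 bases apart in RNPC3. Of 206694 annotated transcript sequences, 3.37% held the motif at least once, and 20 transcripts (0.00968%) of 15 genes held 2 copies whose starts lay within 30 bases. Of 48 transcripts of the 10 genes, 3 did so, from SNRNP48 and RNPC3. The snRNAs that pair with U12-type introns are given next, with the first AAGG, the reverse complement of its last 4 bases, in capitals. These are the first 40 bases of RNU11 (U11, chr1:28648600-28648639, plus strand), RNU12 (U12, chr22:42615244-42615283, plus strand) and RNU6ATAC (U6atac, chr9:134164525-134164564, minus strand). U11 and then U6atac pair with the 5′ splice site, and U12 pairs with the branch site.
U11: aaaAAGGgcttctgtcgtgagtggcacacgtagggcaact
U12: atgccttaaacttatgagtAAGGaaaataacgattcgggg
U6atac: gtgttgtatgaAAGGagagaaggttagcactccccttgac

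Expected counts, which are reads assigned to a gene by a model and need not be whole, summed to 234035407 to 625892507 per library, and the libraries numbered 1 were the deepest of both groups. The members had 865 to 29933 expected counts in a library. Levels are given as CPM, counts scaled to a common library size with TMM factors and not corrected for gene length, and as TPM, the authors' length-corrected value. TPM of the libraries numbered 1 stood apart: in DMSO all 10 members had their highest TPM in replicate 1, and in auxin 9 of 10, whereas CPM was highest in DMSO replicate 1 for 2 of 10. Of 8 epithelial markers, 6 were expressed, with EPCAM at 274 ± 24 CPM in DMSO and 335 ± 20 in auxin (SD, n = 3), while VIL1 and LGALS4 were below 1 CPM. All 6 were called by edgeR, 5 higher (EPCAM, CDH1, KRT8, KRT18 and KRT19, log2 fold changes of 0.29 to 0.54) and CLDN4 lower (87.2 ± 4.3 to 72.3 ± 6.4 CPM, adjusted p = 0.0223). Fibroblast markers were below 1 CPM in every library for 6 of 7 genes, endothelial markers for 4 of 4 and leukocyte markers for 4 of 6. The summed leukocyte markers nevertheless spanned 58.8 to 64.9 CPM in DMSO and 18.6 to 22.0 in auxin, nearly all of it CD68 (61.6 ± 3.2 against 19.6 ± 1.8 CPM), while PTPRC, which encodes the pan-leukocyte antigen CD45, was at 0.0018 ± 0.0018 and 0.0094 ± 0.0013 CPM. The part of these markers in the results below was not tested.

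After auxin, SNRNP48, SNRNP25 and RNPC3 were lower and ZCRB1 was higher, and the other 6 members did not pass the test. That makes 4 of 10 called by edgeR's quasi-likelihood test (Benjamini-Hochberg adjusted p under 0.05 over 19725 genes), against a background of 52.3% of all tested genes called in either direction. A share of 4 in 10 is near or below that background and is not a result about the genes as a set. The median log2 fold change was 0.02 over the 10 members and 0.02 over all tested genes. CPM ranges of the groups did not overlap for 6 of 10 members, beside 60.3% of all tested genes.

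**Figure D1:**
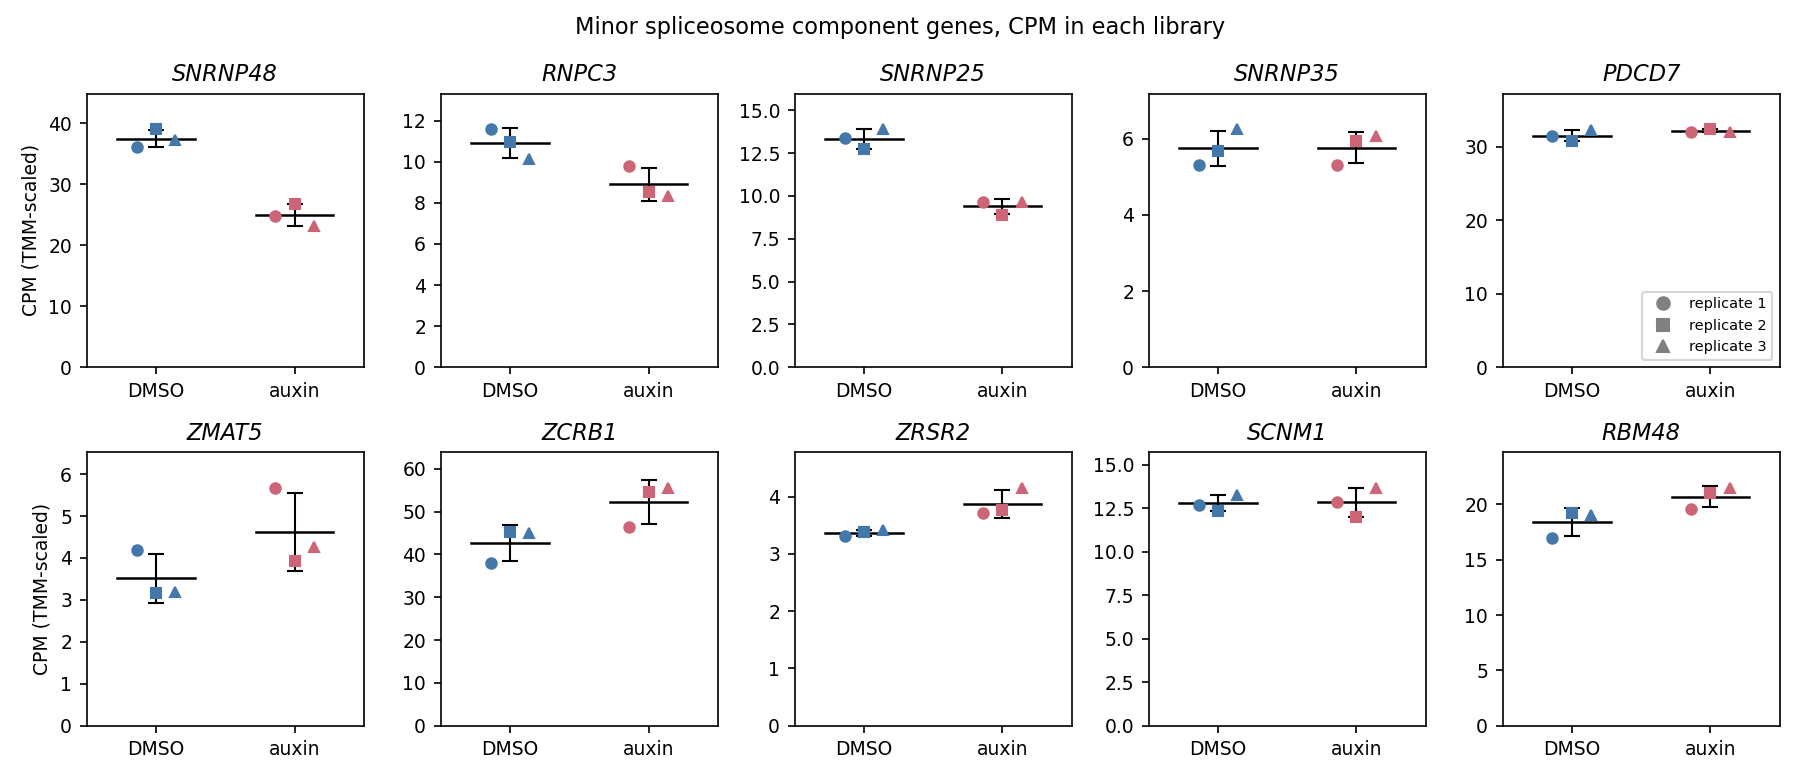
CPM of the 10 genes in each of 6 libraries, with the mean and SD of 3 libraries per group as bars and replicate numbers as symbols; each y axis starts at 0. SNRNP48, SNRNP25 and RNPC3 have all auxin libraries below all DMSO libraries, and ZCRB1, ZRSR2 and RBM48 all above.

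SNRNP48 encodes the U11-48K protein, which contacts the 5′ splice site. It was at 36.2, 39.0 and 37.3 CPM in DMSO replicates 1, 2 and 3 and at 24.8, 26.8 and 23.2 CPM in the auxin replicates. All auxin libraries lay below all DMSO libraries. The log2 fold change was -0.59 (SE 0.07), a fall of the mean from 37.5 ± 1.4 to 25.0 ± 1.8 CPM (SD, n = 3), with an edgeR adjusted p of 0.000441. In bulk RNA, fewer cells of a type and less RNA per cell cannot be told apart. It was called in 13 of 13 alternative analyses, with log2 fold changes between -0.67 and -0.47, and the change was -0.61 without the libraries numbered 1. Of all tested genes, 39.0% had a larger absolute change.

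SNRNP25, which encodes the U11-25K protein, was at 13.4, 12.7 and 13.9 CPM in DMSO and at 9.65, 8.85 and 9.65 CPM in auxin. The groups did not overlap in CPM, nor in TPM, where SNRNP25 and SNRNP48 were the only 2 of 10 members with separate ranges. The log2 fold change was -0.51, with an SE of 0.08 (edgeR adjusted p = 0.0014). The gene lies at chr16:53010-57669 and shares 619 bases with POLR3K on the other strand, a subunit gene of RNA polymerase III that rose by 0.32 on the log2 scale (edgeR adjusted p = 0.0114). Whether counting used the strand is not given in the sources used here, so reads of the shared bases may belong to either gene. Limma on log2 TPM gave a larger log2 fold change of -0.61 with a pseudocount of 1, which did not pass (adjusted p = 0.0803).

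RNPC3 encodes the U11/U12-65K protein, which joins the U11 and U12 sides of the di-snRNP by binding U12 snRNA and the PDCD7 protein. Its CPM was 11.59, 10.97 and 10.16 in DMSO and 9.82, 8.55 and 8.35 in auxin. The lowest DMSO library lay just above the highest auxin library. The log2 fold change was -0.29, with an SE of 0.10 (edgeR adjusted p = 0.0396). The call ended on leaving out any 1 of DMSO replicates 1 and 2 and auxin replicates 2 and 3 (adjusted p = 0.0834 to 0.136), and with upper-quartile scaling (0.252), no filter on low counts (0.051) or limma on log2 TPM (0.291 with a pseudocount of 1), and it was kept in 5 of 13 alternatives.

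ZCRB1, the gene of the U11/U12-31K protein, was at 37.9, 45.1 and 44.9 CPM in DMSO and at 46.3, 54.7 and 55.6 CPM in auxin. Each auxin library was above the DMSO library of its number, and the libraries numbered 1 were the lowest of both groups. The mean went from 42.7 ± 4.1 to 52.2 ± 5.1 CPM (SD, n = 3), a log2 fold change of 0.29, with an SE of 0.10 (edgeR adjusted p = 0.0427). The call ended without any 1 library other than auxin replicate 1 (adjusted p = 0.0635 to 0.139) and with limma on log2 TPM (0.607 with a pseudocount of 1). All 14041 bases of the ZCRB1 gene lie opposite PPHLN1, which was at 67.0 CPM in DMSO and 70.9 in auxin and was not called (adjusted p = 0.338).

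The remaining di-snRNP genes and the later-acting genes did not pass. ZMAT5, for U11/U12-20K, was at 4.19, 3.16 and 3.19 CPM in DMSO and at 5.68, 3.92 and 4.25 CPM in auxin, where replicate 1 was the highest of both groups and the groups overlapped; the log2 fold change was 0.39, with an SE of 0.18 (edgeR adjusted p = 0.111). ZRSR2, whose protein recognises the 3′ splice site of U12-type introns, was at 3.31, 3.39 and 3.41 CPM against 3.71, 3.77 and 4.16, with a log2 fold change of 0.20, with an SE of 0.10 (edgeR adjusted p = 0.128). RBM48, which works with ARMC7 in the activated minor spliceosome, was at 16.9, 19.2 and 19.1 CPM against 19.6, 21.0 and 21.5, with a log2 fold change of 0.17, with an SE of 0.08 (edgeR adjusted p = 0.107). ZMAT5, ZRSR2 and RBM48 were each higher in 3 of 3 same-numbered pairs. They were called higher once the replicate number was fitted as a block (adjusted p = 0.00109, 0.0363 and 0.00492), which made 7 of 10 members called against a background of 69.9% of all tested genes. With both libraries numbered 1 left out, 3 members were called higher (ZCRB1, ZMAT5 and RBM48) and 3 lower (SNRNP48, SNRNP25 and RNPC3). Of all 19556 genes tested in that setting, 5914 were called higher and 6219 lower.

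PDCD7, SNRNP35 and SCNM1 had changes near 0. PDCD7, for the U11-59K protein that binds RNPC3, was at 31.5 ± 0.7 CPM in DMSO and 32.2 ± 0.2 in auxin (SD, n = 3), with a log2 fold change of 0.03 (SE 0.05). SNRNP35, for the U11-35K protein that resembles U1-70K, was at 5.74 ± 0.47 and 5.77 ± 0.40 CPM, with a log2 fold change of 0.01 (SE 0.10), and SCNM1 at 12.8 ± 0.5 and 12.9 ± 0.8 CPM, with a log2 fold change of 0.01 (SE 0.08). Their signs turned under other scalings: limma on log2 TPM gave -0.12, -0.10 and -0.14 in that order, while upper-quartile scaling called PDCD7 higher (0.15, adjusted p = 0.0434). Those scalings moved the median gene by -0.14 and by 0.12 on the log2 scale, and RBM48 also turned sign with limma, to -0.03. SNRNP35 shares 3101 bases with RILPL1 on the other strand, which rose by 1.35 on the log2 scale (edgeR adjusted p = 2.91e-05), and SCNM1 shares 6201 bases with LYSMD1, which was not called.

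**Figure D2:**
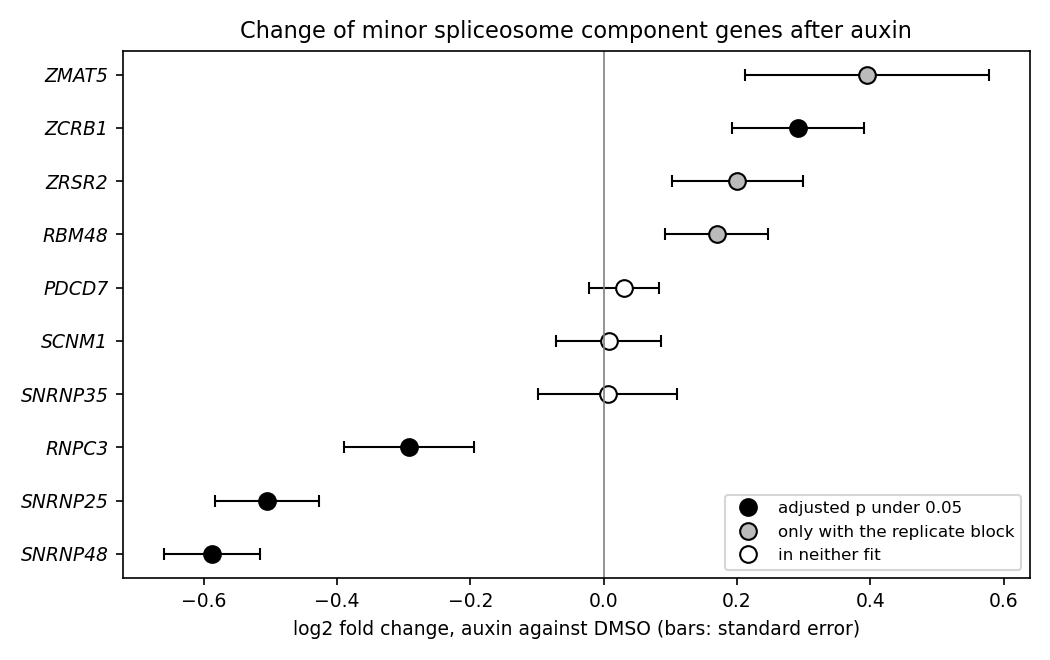
Log2 fold change of each gene with its standard error, filled black where edgeR called it and grey where only the fit with the replicate block did. SNRNP48, SNRNP25 and RNPC3 sit at -0.59, -0.51 and -0.29, and ZCRB1 is the 1 black point above 0, at 0.29.

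On the length-corrected TPM scale, ZCRB1 had the highest level in DMSO (34.7 ± 4.4, SD, n = 3) and ZRSR2 the lowest (3.06 ± 0.70). SCNM1 followed ZCRB1 at 20.5 ± 5.3 TPM, then SNRNP25 at 15.0 ± 3.5, RBM48 at 12.6 ± 1.7, PDCD7 at 12.3 ± 2.4 and SNRNP48 at 12.1 ± 1.8. RNPC3 (7.06 ± 1.37), SNRNP35 (6.54 ± 1.31) and ZMAT5 (4.93 ± 2.08) came below these. Only the steps from ZCRB1 to SCNM1 and from SNRNP48 to RNPC3 had separate DMSO ranges, and the other 7 pairs of neighbours overlapped. In auxin SNRNP48 was at 7.55 ± 0.64 TPM, SNRNP25 at 9.40 ± 1.59 and RNPC3 at 5.33 ± 0.89.

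**Figure D3:**
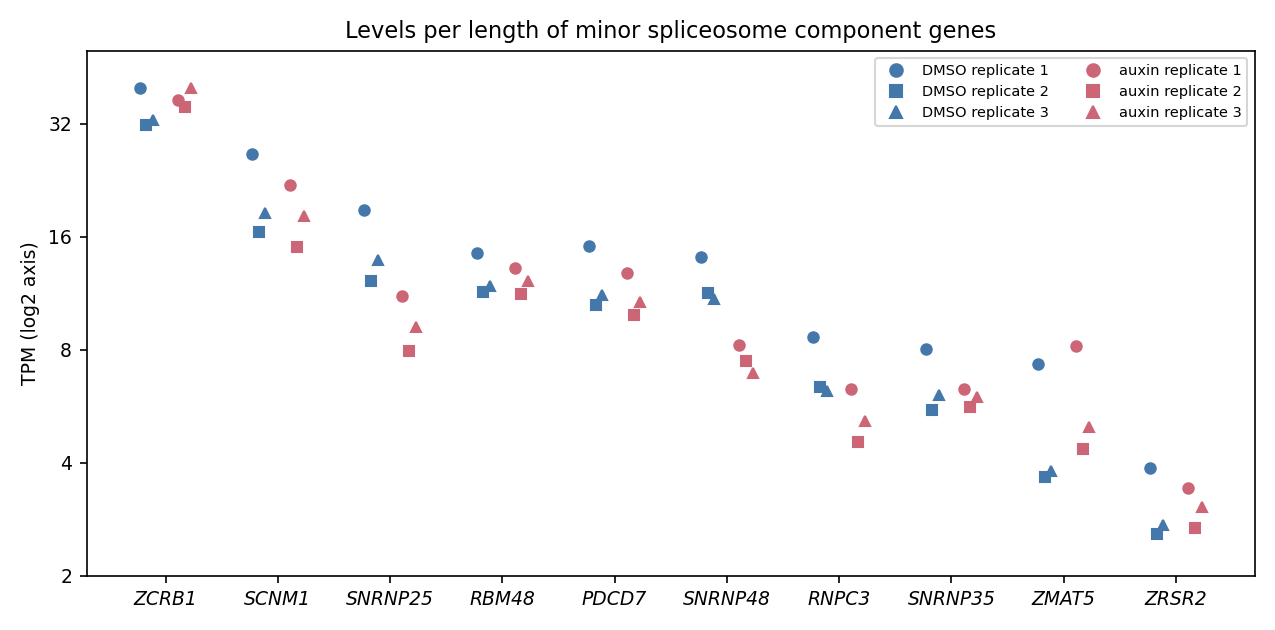
TPM of the 10 genes in each library on a log2 axis, ordered by the DMSO mean. The circles, replicate 1, are the highest DMSO points for all 10 genes, and ZCRB1 stands above the rest.

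At the transcript level, 40 of the 48 member transcripts were tested, 3 were called lower and 0 higher by edgeR over 83072 transcripts, against a background of 19.7% called in either direction, 8.43% higher and 11.2% lower. With the replicate block, 2 were called higher (ZCRB1-201 and ZMAT5-201) and 3 lower, against 27.0%. The 3 lower ones were SNRNP48-201, SNRNP25-202 and RNPC3-201, each the transcript with the largest share of its gene's TPM. SNRNP25-202 held 95.6 ± 0.6% of SNRNP25 TPM in DMSO and 95.9 ± 1.0% in auxin (SD, n = 3), and its log2 fold change was -0.49 (adjusted p = 0.0205). That call was kept in 7 of 14 alternatives and ended without DMSO replicate 2 or 3 or auxin replicate 2 or 3 (adjusted p = 0.0577 to 0.0796), with upper-quartile scaling (0.0728) and with limma on log2 TPM (0.104 with a pseudocount of 1). At an unadjusted p under 0.05, 1 member transcript was higher and 3 were lower, the same numbers as DESeq2 called. Of 6 retained-intron transcripts tested, edgeR called 0, and 0 also at an unadjusted p under 0.05 and with DESeq2. On simulated data with 2000 changed transcripts among 78943, the test recovered 16% of the 4-fold and 1.3% of the 2-fold changes, and with 200 changed among 79058 it recovered 0% of both; the deposited tables gave more calls (16330 of 83072), so these rates need not hold for them.

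RNPC3 differed in its last exon. RNPC3-201 ends in an exon at chr1:103555034-103555239, while RNPC3-202 and RNPC3-208 end in one that starts upstream, at chr1:103553274, and holds the paired motif shown above, 44 bases after its start. The coding sequence stops in the exon before, at chr1:103551778-103551780, in RNPC3-201. An annotated RNPC3 intron, chr1:103553333-103553605, starts at copy 2 of the motif. RNPC3 is therefore also among the genes described below with an intron that starts with the motif. RNPC3-201 was at 5.48, 5.25 and 4.88 CPM in DMSO and at 3.16, 3.32 and 3.04 CPM in auxin, with no overlap, a log2 fold change of -0.71 (SE 0.12) and an edgeR adjusted p of 0.0118. RNPC3-202 and RNPC3-208 together were at 3.87, 3.27 and 3.32 CPM in DMSO and at 4.17, 3.43 and 3.24 CPM in auxin, with overlapping ranges. The RNPC3-201 call ended without DMSO replicate 2 (adjusted p = 0.0574) or auxin replicate 3 (0.0514) and with limma on log2 TPM (0.0882 with a pseudocount of 1). RNPC3 shares 1425 bases with AMY2B on the same strand, so reads of the shared bases may belong to either gene. AMY2B was at 0.43 CPM in DMSO and 0.55 in auxin and was not called by edgeR (adjusted p = 0.413).

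As a share of the TPM of these alternatives, RNPC3-201 was 66.8%, 69.3% and 66.1% in the DMSO replicates and 52.8%, 57.0% and 55.7% in the auxin replicates. All auxin libraries lay below all DMSO libraries, and the share was lower in 3 of 3 same-numbered pairs. The mean went from 67.4 ± 1.7% to 55.2 ± 2.2% (SD, n = 3), or from 59.9% to 46.9% when expected counts replaced TPM. This split was chosen after its values were seen and has no test. RNPC3-202 also has another number of exons than RNPC3-208 (15 against 16), so the shares compare whole annotated transcripts and not single junctions. The posterior SD of the RNPC3-201 count, the model's uncertainty in dividing reads among transcripts, reached 5.15% of the count in a library, and 7.31% for RNPC3-202.

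SNRNP48 has a counterpart inside the gene. SNRNP48-203, annotated as a target of nonsense-mediated decay, the pathway that destroys mRNAs with an early stop codon, includes an 8-base exon at chr6:7599673-7599680, which lies 55 bases before the paired motif. To show how the exon brings in the stop codon, spliced SNRNP48-203 and SNRNP48-201 are given from the last 20 bases of the exon before (chr6:7595082-7601371, plus strand), with the 8-base exon and the annotated stop codon of SNRNP48-203 in capitals.
SNRNP48-203: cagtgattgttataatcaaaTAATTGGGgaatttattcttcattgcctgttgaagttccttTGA
SNRNP48-201: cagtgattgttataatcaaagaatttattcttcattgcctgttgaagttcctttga

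The extra exon shifts the reading frame, so that SNRNP48-203 stops after 33 bases of the following exon, with 153 bases of that exon and 2 further exons behind the stop codon. SNRNP48-201 has the same letters out of frame and stops at chr6:7608871. SNRNP48-201 was at 32.7, 35.3 and 34.9 CPM in DMSO and at 21.9, 24.7 and 21.3 CPM in auxin, without overlap, and its log2 fold change was -0.60, with an SE of 0.09 (edgeR adjusted p = 0.00745). SNRNP48-203 was at 1.26, 2.16 and 1.87 CPM in DMSO and at 1.04, 1.71 and 1.55 CPM in auxin, lower in 3 of 3 pairs with overlapping ranges, and was not called (log2 fold change -0.30, SE 0.29, adjusted p = 0.553).

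Of the summed TPM of SNRNP48-201 and SNRNP48-203, the latter took 20.9%, 29.5% and 27.1% in the DMSO replicates and 24.6%, 32.4% and 33.3% in the auxin replicates. The ranges overlapped, and the share was higher in 3 of 3 same-numbered pairs. In expected counts, which do not correct for the length of 781 bases against 4173, the share was 4.86 ± 1.05% and 5.94 ± 1.21%. This split, too, was chosen after its values were seen and has no test. SNRNP48-203 has 8 exons against 9 in SNRNP48-201, so the shares compare whole annotated transcripts and not the extra exon alone. The posterior SD of the SNRNP48-203 count reached 7.19% of the count in a library.

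**Figure D4:**
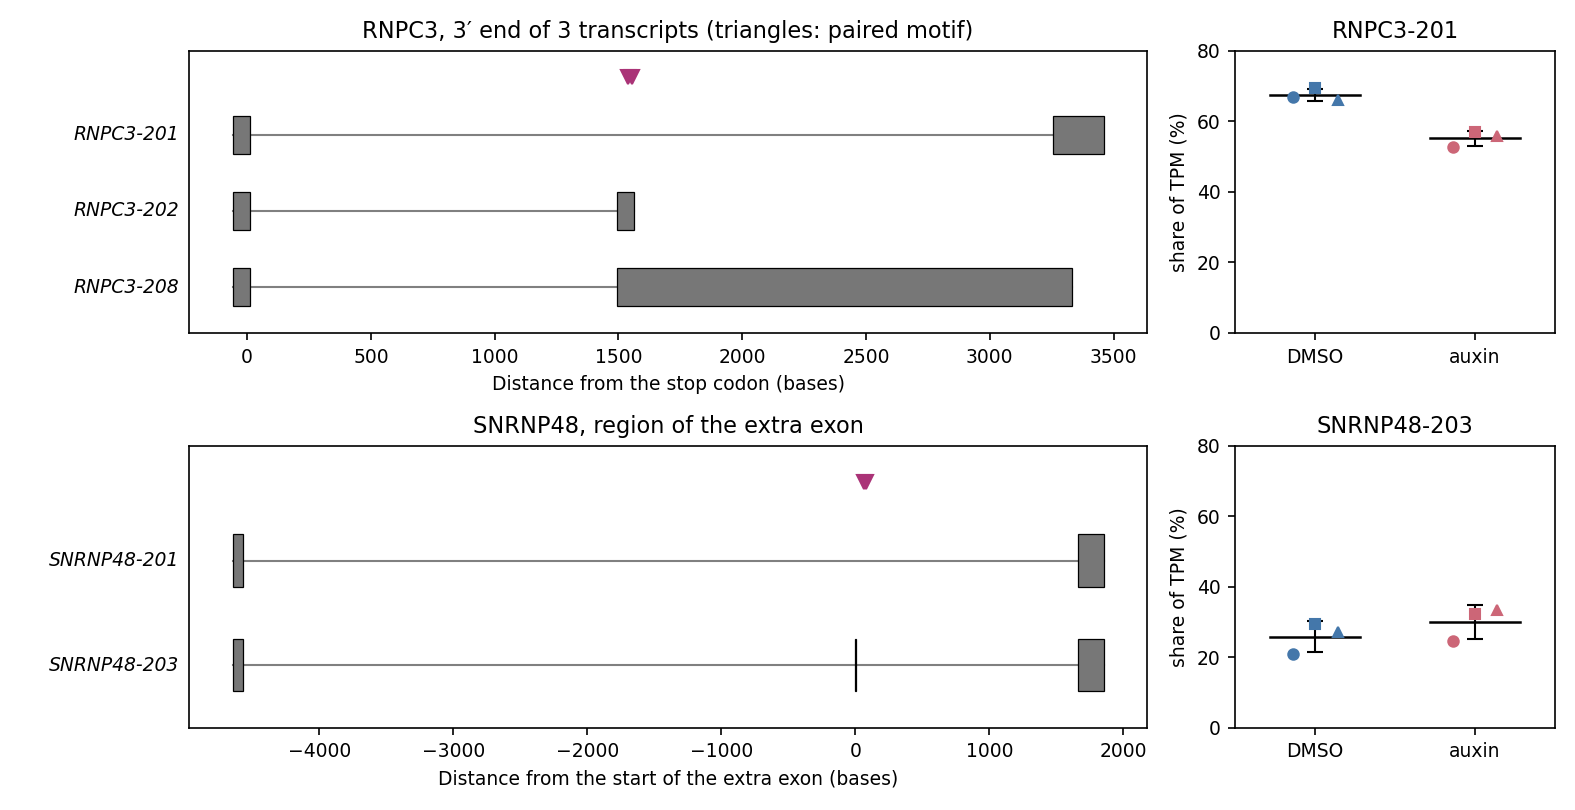
Left, exons of RNPC3 and SNRNP48 transcripts to scale in bases from the stop codon and from the extra exon, with triangles over the paired motif. Right, shares of TPM by library with mean and SD of 3 libraries: RNPC3-201 holds 67.4% in DMSO and 55.2% in auxin, without overlap, and SNRNP48-203 spans 20.9% to 29.5% in DMSO and 24.6% to 33.3% in auxin.

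RNPC3 has 2 further transcripts above 10% of its TPM. RNPC3-206, its second in rank, held 20.2 ± 6.0% in DMSO and 23.3 ± 1.8% in auxin (SD, n = 3), with overlapping ranges. RNPC3-205 held 5.202%, 5.83% and 6.45% in DMSO and 8.27%, 7.27% and 18.4% in auxin, where replicate 3 stood far above the other two; the ranges did not overlap, the transcript was not called (adjusted p = 0.322), and the posterior SD of its count reached 47.9% of the count.

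In the other members the ranges of the main transcripts' shares overlapped between groups. PDCD7-201 held 96.3 ± 2.3% of PDCD7 TPM in DMSO and 96.7 ± 1.5% in auxin (SD, n = 3), and ZMAT5-201 97.9 ± 1.0% and 98.8 ± 0.5%. RBM48-201 held 73.1 ± 2.7% and 74.8 ± 3.7%, with RBM48-203 next at 21.5 ± 1.3% and 18.7 ± 2.1%. SCNM1-207 held 73.3 ± 4.9% and 75.7 ± 5.0%, SCNM1-201 12.1 ± 2.4% and 8.72 ± 2.42%, and SCNM1-204 10.4 ± 2.5% and 10.3 ± 2.3%. ZRSR2-201 held 75.6 ± 3.1% and 78.3 ± 3.0%, and ZRSR2-202 23.5 ± 2.8% and 21.6 ± 2.8%. ZCRB1 was divided between ZCRB1-201 (58.4 ± 1.1% and 59.4 ± 7.3%) and ZCRB1-205 (34.8 ± 5.8% and 36.1 ± 9.9%). SNRNP35 was spread most widely, with SNRNP35-201 at 51.9 ± 3.6% and 49.4 ± 4.7%. SNRNP35-202 held 12.6 ± 0.8% and 13.5 ± 1.8%, SNRNP35-203 13.1 ± 2.1% and 12.5 ± 1.1%, and SNRNP35-206 12.9 ± 4.4% and 15.9 ± 1.4%.

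Over the 6 libraries, the genes whose log2 CPM followed SNRNP48 most closely among 8873 others with a mean of at least 10 CPM were SMAD4, LSM11 and ZC2HC1A, with Pearson r of 0.9985, 0.9984 and 0.9983. The libraries differ in depth and belong to the DMSO and auxin groups, so r also reflects the difference between the groups. Of the genes compared, 1186 had r of at least 0.95.

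Of the 4 snRNA genes, RNU11 was listed at 0 in all 6 libraries. RNU4ATAC was at 1.11, 8.80 and 6.60 CPM in DMSO and at 1.88, 7.74 and 7.07 CPM in auxin, so the libraries numbered 1 were the lowest of both groups. RNU12 was at 0.0963 and 0.299 CPM in the libraries numbered 1 and between 0.551 and 1.27 in the others, and RNU6ATAC at 0.452 and 0.528 against 1.79 to 3.00. On the length-corrected scale these short genes had DMSO means of 533 ± 325 TPM for RNU4ATAC, 205 ± 118 for RNU6ATAC and 43.9 ± 31.4 for RNU12 (SD, n = 3). In TPM, RNU4ATAC and RNU6ATAC were above the highest member, ZCRB1, in every library. RNU12 was below ZCRB1 in DMSO replicate 1 (7.72 against 39.75 TPM) and in auxin replicates 1 (19.59 against 36.86) and 3 (26.28 against 39.87). In CPM, all 3 were below ZCRB1 in every library. Their rank in TPM thus rests on the length correction of genes of 126 to 150 bases. Of the 3 tested, edgeR called 0 (adjusted p = 0.614 to 0.989), and 0 passed at an unadjusted p under 0.05 or with DESeq2. With both libraries numbered 1 left out, RNU12 (log2 fold change -0.70, adjusted p = 0.022) and RNU6ATAC (-0.56, adjusted p = 0.00252) were called lower, and RNU4ATAC was not. That setting has fewer libraries per group, and of all 19556 genes tested in it, 5914 were called higher and 6219 lower. RNU12 was there at 1.27 and 1.24 CPM in DMSO and at 0.992 and 0.551 CPM in auxin, low levels.

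Of 5 other proteins tied to the minor spliceosome, 2 genes rose, 2 fell and 1 was not called, beside 52.3% of all tested genes called. ARMC7, the partner of RBM48, fell from 20.5 ± 2.1 to 15.1 ± 1.9 CPM (SD, n = 3), a log2 fold change of -0.44, with an SE of 0.12 (edgeR adjusted p = 0.0159), a call that ended without auxin replicate 2 (0.0531) or 3 (0.0544). RBM41, an RNA-binding protein related to RNPC3, fell by 0.46 on the log2 scale (adjusted p = 0.00138). TXNL4B, which resembles the U5 protein TXNL4A, rose by 0.38 (adjusted p = 0.00226), and CRIPT rose by 0.36 (adjusted p = 0.00366). CENATAC, which acts on U12-type introns with AT-AC ends, was at 5.01 ± 1.55 and 4.13 ± 1.57 CPM and was not called; it was called lower with the replicate block (log2 fold change -0.30, adjusted p = 0.00698) and with both libraries numbered 1 left out (-0.36, adjusted p = 0.00886).

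Genes of proteins that both spliceosomes share, and of the major spliceosome, included larger changes than any member, up to -2.29 on the log2 scale against -0.59; the difference between the lists was not tested. Of 7 SF3b subunits, which bind the branch site, 3 rose and 1 fell: SF3B3 rose by 0.61 on the log2 scale (adjusted p = 0.000224) and SF3B2 fell from 246 ± 13 to 110 ± 8 CPM. Of 8 U5 proteins, 0 rose and 5 fell, also at an unadjusted p under 0.05 and with DESeq2, with CD2BP2 falling most, from 39.0 ± 4.2 to 7.99 ± 0.06 CPM, and PRPF8, the catalytic core scaffold, from 872 ± 10 to 459 ± 20 CPM. Of 12 proteins of the U4/U6 particle, 2 rose and 6 fell, led by PRPF3 (0.63) and PRPF31 (-1.64 on the log2 scale). Of 7 Sm proteins, 1 rose, SNRPE (0.26), and 0 fell, the same at an unadjusted p under 0.05, while DESeq2 called 0 in either direction. Of 10 major spliceosome counterparts, proteins particular to U1 or U2, 2 rose and 5 fell, led by SNRNP70 (0.33) and U2AF2 (-1.28). With the replicate block, called genes numbered 5 higher and 1 lower for SF3b, 2 higher (SNRNP40 and TXNL4A) and 5 lower for U5, 3 and 8 for U4/U6, 3 and 0 for Sm, and 3 and 5 for the counterparts. Of all 19725 tested genes, the block fit called 69.9%, 7005 higher and 6789 lower. The SNRPE call ended in 9 of 13 alternatives and the SNRNP70 call in 6, and limma on log2 TPM also ended those of SF3B3 and PRPF3. The medians of these lists were 0.25 for SF3b, -0.84 for U5, -0.24 for U4/U6, 0.06 for Sm and -0.15 for the counterparts, beside 0.02 for all tested genes, of which 25.4% were called higher and 26.9% lower.

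**Figure D5:**
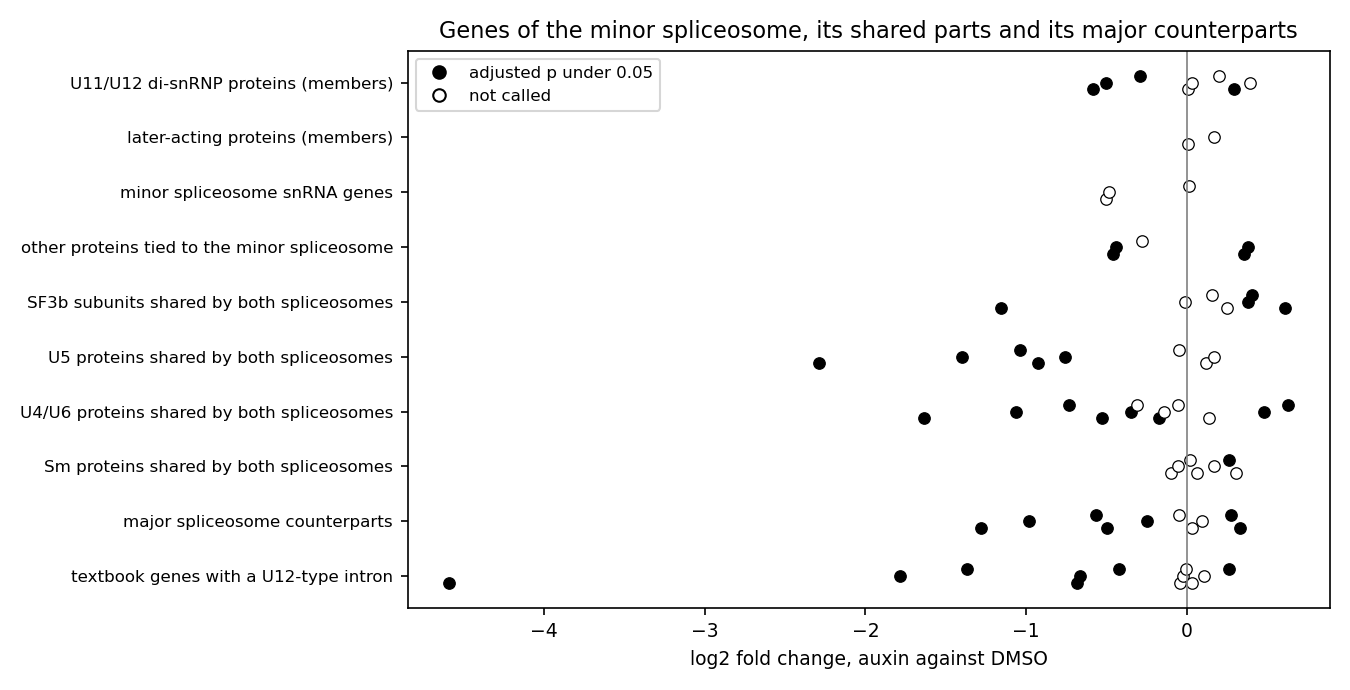
Log2 fold change of each tested gene by list, black where edgeR called it. The member genes lie between -0.59 and 0.39, and U5 genes reach -2.29.

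Genes with a U12-type intron were taken from a textbook list. Genes with an intron that starts with the motif were taken from the annotation. Of 12 textbook genes with a U12-type intron, 1 rose (THOC2, by 0.26 on the log2 scale, a subunit of the mRNA export complex THO) and 6 fell, beside 25.4% of all tested genes called higher and 26.9% lower. The THOC2 call ended without any 1 library other than auxin replicate 1 (adjusted p = 0.0698 to 0.103) and with limma on log2 TPM. E2F1, a cell cycle transcription factor, fell from 31.5 ± 4.2 to 1.30 ± 0.24 CPM (SD, n = 3) and its relative E2F2 from 44.0 ± 4.4 to 12.8 ± 1.2 CPM, while E2F3 was at 102 ± 2 and 98.6 ± 1.2 CPM and was not called. STK11, the kinase LKB1, fell by 1.37 on the log2 scale, NOP2 by 0.69, HPS1 by 0.66 and MAPK9 by 0.42. The HPS1 call ended without auxin replicate 2 (adjusted p = 0.0732) or 3 (0.0787), with upper-quartile scaling (0.0643) and with limma on log2 TPM (0.223 with a pseudocount of 1), and limma also ended the NOP2 call (0.123).

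Without a genome sequence, 65697 annotated introns could be read at their first 8 bases, because another transcript of the gene has them in an exon, and 218 of these, in 165 genes, began with the motif. Of the 12 textbook genes, 4 were among those tested with such an intron. Of the 99 introns that began with the motif and whose last 50 bases were readable as well, 20 held CCTTAAC, a branch site motif. Of 151 such genes tested, 21.2% were called higher and 37.7% lower, with a median log2 fold change of -0.02. Of all 11844 tested genes with a readable intron, 61.1% were called, 26.9% higher and 34.2% lower, with a median of -0.03. By the naming rule, those that fell most were EDC4 (from 52.6 ± 12.2 to 3.08 ± 1.13 CPM), PPP5C, ZDHHC8, CLCN7 and PEX16, with log2 fold changes between -4.08 and -2.67. Those that rose most were TAF1C, LSG1, MYO1E, SSR3 and NCBP2, between 0.66 and 0.86; the TAF1C call ended without DMSO replicate 2 (adjusted p = 0.0836) or 3 (0.0737), and limma on log2 TPM ended those of TAF1C and SSR3. Whether these introns are spliced by the minor spliceosome was not measured.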

How the data were processed

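For each of 6 libraries the authors deposited a gene and a transcript table. Per the file headers these hold expected counts, TPM and posterior standard deviations of the counts, in the layout of RSEM. Per the submitters' processing notes, bcl2fastq 2.20, STAR and DESeq2 were used with GRCh38 (hg38), and the use of strand is not given in the sources used here. Of the gene IDs, 58780 matched GENCODE release 29, and 746 others, with 2.55 to 11.1 CPM of a library, were left out. The 10 members, the 14 gene lists, the tests and the naming rules were chosen with earlier results of these data known.

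Expected counts deposited by the authors were rounded and tested with edgeR 4.0.16 in R 4.3.3 (filterByExpr, TMM, glmQLFit, glmQLFTest), over all genes and all transcripts, with Benjamini-Hochberg adjusted p under 0.05. Standard errors come from the quasi-likelihood F. In simulated data with 200 changed genes among 19429, 50% of 2-fold and 28% of 1.5-fold changes were recovered. The deposited tables gave more calls (10321 of 19725), so these rates need not hold for them. The TPM values deposited by the authors served for levels, shares and limma 3.58.1. DESeq2 1.42.0 was an alternative. The depth was 234035407 to 625892507 counts; for members with few counts or a small SD, such as ZRSR2 in DMSO, counting error is not small beside the spread between libraries.

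Named were all members, the snRNA and minor-spliceosome lists, and the called gene of largest change in each direction of each shared list. Of genes with a readable intron beginning with the motif and at least 1 CPM, the 5 called with the largest change per direction were named. The 3 genes most correlated with the member of largest change were named too, as were transcripts with at least 10% of a member's TPM (5% if called). MAPK9, PRPF8, E2F3 and the markers were named after their values were seen. Deviations from the group means correlated between same-numbered libraries (Pearson r across genes of 0.651, 0.265 and 0.276 for numbers 1, 2 and 3). Auxin replicate 2 correlated at 0.312 with DMSO replicate 3, and auxin replicate 3 at 0.18 with DMSO replicate 2. Deviations from a mean of 3 libraries sum to 0, so the check cannot tell pairs among numbers 2 and 3 when number 1 stands apart. The reported fits did not pair the samples, and the replicate block was an alternative only. The labels call the replicates biological but name no shared batch.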

Additional observations from a re-analysis of the deposited data

How the results depend on the processing

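The groups compared have 3 libraries each, and the tests see only changes that stand above the spread between them. SNRNP48 was lower and called in 13 of 13 alternatives, SNRNP25 was lower in 13 and called in 11, RNPC3 was lower in 13 and called in 5, and ZCRB1 was higher in 13 and called in 6. Members called higher, 1 as reported, numbered 4 with upper-quartile factors and 3 with both libraries numbered 1 left out. They numbered 0 with limma on log2(TPM + 1) or log2(TPM + 0.1), and 0 to 1 without single libraries. All tested genes called higher numbered 5010 of 19725 as reported, and 6534, 5914 of 19556, 970, 1017 and 3876 to 4979 in these settings. Members called lower, 3 as reported, numbered 1 with either limma setting, where genes called lower fell from 5311 to 2966 and 3223. The replicate block raised the members called higher to 4 and left 3 lower, while it called 7005 of all tested genes higher and 6789 lower. The member counts thus moved along with those of all genes. The block also moved the transcripts called higher from 6999 to 10666 and the member transcripts called higher from 0 to 2, and it called CENATAC lower; of the other member calls it changed only those of ZMAT5, ZRSR2 and RBM48.

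Genes called higher and lower were 5010 and 5311 as reported, 970 and 2966 with limma on log2(TPM + 1), and 1017 and 3223 on log2(TPM + 0.1). Upper-quartile factors called 6534 higher and 4416 lower, so that 59.7% of calls were higher against 48.5% as reported and 24.6% with limma on log2(TPM + 1). Transcripts called higher and lower were 6999 and 9331 as reported. They were 12365 and 14352 with DESeq2, which called 1 member transcript higher. Upper-quartile factors called 10807 transcripts higher, with 1 member transcript higher. Limma called 2273 transcripts higher on log2(TPM + 1), with 0 member transcripts lower, and 2553 on log2(TPM + 0.1), with 1 lower. Without single libraries, transcripts called higher ranged from 3274 to 5395, transcripts called lower from 5626 to 8883 and member transcripts called lower from 1 to 3. RNPC3-201 was called in 10 of 14 alternatives, SNRNP48-201 in 13 and SNRNP25-202 in 7. Of 182 counts of called genes in 7 lists under the alternatives, 133 were within 1.5 times the reported count. Why the counts moved was not tested.

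Changes of sign were limited to genes that were not called. Without the filter on low counts, the log2 fold change was -0.017 for SNRNP35 and -0.017 for SCNM1. With limma on log2(TPM + 1) and log2(TPM + 0.1) it was -0.10 and -0.11 for SNRNP35, -0.12 and -0.13 for PDCD7, -0.14 and -0.14 for SCNM1, and -0.032 and -0.034 for RBM48. Without single libraries it ranged from -0.046 to 0.065 for SNRNP35, from -0.0068 to 0.037 for PDCD7, from -0.038 to 0.054 for SCNM1, from -0.64 to 0.0076 for CENATAC and from -0.47 to 0.53 for RNU4ATAC, which was -0.058 with both libraries numbered 1 left out.

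Of 151 tested genes with a readable intron that began with the motif, 32 were called higher and 57 lower (21.2% and 37.7%). With the first 7 bases of the motif these were 44 and 79 of 192 (22.9% and 41.1%). With all 8 bases and the branch site motif they were 1 and 3 of 17 (5.88% and 17.6%, median log2 fold change 0.004). Of all 11844 tested genes with a readable intron, 26.9% were called higher and 34.2% lower. The difference between these sets was not tested. Reading introns from transcripts, and the RNPC3 and SNRNP48 splits, were added after the data were seen.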
